A study of Mus musculus with 10 samples.

Results

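The genes described here are 10 transient receptor potential (TRP) channel genes of the mouse, Trpv1, Trpv2, Trpv4, Trpv6, Trpm2, Trpm3, Trpm4, Trpm7, Trpc1 and Trpc4, out of 53379 genes counted in each library. The list was chosen by symbol around Trpv4, which was itself selected on its measured counts: the study lists it among its leading lower genes in appetitive relative to neutral cells. Values of that comparison are therefore given as a description, and nothing is read from which members passed a threshold in it. RNA-seq was run on EYFP-positive material sorted from microdissected hippocampal regions of 5-week-old male mice, which the study calls cells in its methods and nuclei in its results. Tagging used 2 AAV9 viruses, c-Fos-tTA and TRE-ChR2-EYFP: the transactivator is made in cells with c-Fos promoter activity and is inhibited by doxycycline, so only cells active while the drug was withdrawn were to be labeled.

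The aversive group (2 libraries, numbered 1 and 3) received 4 foot shocks of 2 s and 1.5 mA. The appetitive group (2 libraries) was exposed to a female, for 1 h according to the labels and for longer according to the methods. The neutral group (3 libraries) was placed in the conditioning cage without either stimulus, and the mock group (3 libraries) stayed in the home cage by the labels and was an untagged control by the study's text. Mice were pooled, 8 for each condition by the labels, while the study's text gives 2 mice for the mock control, so its 3 libraries may share mice. The study states that sequencing was replicated, but the sources do not tie single libraries to separate pools of mice, so the p-values below measure only the spread between libraries, which may be technical. The neutral libraries were made with another kit and read at 100 bp on another sequencer than the other 7, which were read at 40 bp, and the labels give total RNA as the input of the neutral libraries and polyA RNA for the rest. The neutral experience, the kit and the kind of RNA cannot be told apart.

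Libraries differed widely. Total counts ranged from 16968588 to 67650693, and Spearman correlations within a group were 0.606 for appetitive, 0.637 for aversive, 0.766 to 0.864 for neutral and 0.910 to 0.922 for mock libraries. Summed markers of pyramidal neurons came to 21.9 to 44.7 CPM (counts scaled to 1000000 normalized counts) in neutral libraries and to 138 to 685 CPM elsewhere. Most of the appetitive sums was Snap25, at 577 and 154 CPM in libraries 1 and 2. Of the 6 markers, 3 and 4 were under 1 CPM in these 2 libraries, as were 4, 4 and 2 in the neutral libraries. Summed levels of 6 oligodendrocyte markers reached 802074 CPM in 1 appetitive library. Of the 19754 genes that passed the filter on low counts, 56.6% and 48.9% had at most 3 counts in appetitive libraries 1 and 2, against 2.09% to 39.6% in the other 8. In bulk material of this kind, fewer cells of a type and less RNA per cell cannot be told apart.

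TRP channels are cation channels of the plasma membrane and of intracellular membranes, most of them permeable to calcium. The vanilloid subfamily (TRPV) includes channels opened by heat, ligands, swelling and stretch, the melastatin subfamily (TRPM) includes channels tied to calcium, magnesium and oxidative signals, and the canonical subfamily (TRPC) opens downstream of receptors that activate phospholipase C. TRPV4 responds to osmotic and mechanical stimuli and to warmth, and it is known for its high abundance in the epithelium of the choroid plexus, the tissue in the brain ventricles that secretes cerebrospinal fluid. TRPV4 is also described in neurons and astrocytes of the hippocampus.

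The starts of these genes differed in composition. Among the 250 bases before each annotated start (RefSeq, GRCm38.p6, with 9 of the 10 genes matched, in 12 windows), Trpv4 had the highest GC content, at 72.0% with 22 CpG dinucleotides, and Trpm7 the most CpG, 26. Trpv1 and Trpv6, at or near 0 counts in the libraries below, had 50.8% and 49.6% GC with 2 and 1 CpG. Over all 32851 windows of the same length the medians were 52.4% GC and 6 CpG. The windows of Trpv4, of the outer of the Trpm3 starts, and of Trpv1 and Trpv6 are shown to set the CpG-rich starts of the most abundant members beside those of the members at or near 0 counts, with each CpG in capitals. They lie at chr5:114658422-114658671 (minus strand), chr19:22138796-22139045 (plus), chr11:73233899-73234148 (plus) and chr6:41636406-41636655 (minus).
Trpv4: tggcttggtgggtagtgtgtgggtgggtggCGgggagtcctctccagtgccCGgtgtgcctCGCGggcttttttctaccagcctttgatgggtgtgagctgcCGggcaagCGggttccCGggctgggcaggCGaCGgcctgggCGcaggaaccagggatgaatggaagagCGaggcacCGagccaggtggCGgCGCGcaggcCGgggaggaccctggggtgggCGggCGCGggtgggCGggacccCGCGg
Trpm3: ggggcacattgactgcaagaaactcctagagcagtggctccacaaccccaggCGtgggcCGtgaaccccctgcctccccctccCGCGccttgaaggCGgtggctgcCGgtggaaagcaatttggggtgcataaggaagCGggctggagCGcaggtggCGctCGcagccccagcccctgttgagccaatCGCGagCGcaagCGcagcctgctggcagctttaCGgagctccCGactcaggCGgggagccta
Trpv1: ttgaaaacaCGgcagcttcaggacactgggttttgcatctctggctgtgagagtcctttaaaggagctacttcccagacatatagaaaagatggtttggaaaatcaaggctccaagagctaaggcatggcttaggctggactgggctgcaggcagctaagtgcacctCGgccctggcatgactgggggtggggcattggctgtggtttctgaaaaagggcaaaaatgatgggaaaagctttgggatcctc
Trpv6: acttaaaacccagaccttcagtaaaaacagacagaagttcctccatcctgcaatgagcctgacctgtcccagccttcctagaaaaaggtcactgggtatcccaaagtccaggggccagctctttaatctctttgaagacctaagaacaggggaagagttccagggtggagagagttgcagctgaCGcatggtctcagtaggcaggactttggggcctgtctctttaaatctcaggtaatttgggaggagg
The Trpv2 windows were also CpG-poor, with 2 to 5 CpG, although Trpv2 was counted in every library, so a CpG-poor start did not go with absence in each case. Nor did a CpG-rich start go with abundance in each case. Trpc4 had 66.4% GC with 12 CpG and Trpm2 56.8% with 10 CpG, but they were under 1 CPM in 6 and 5 libraries. A search on both strands for TAATCC, the core bound by OTX factors, and for TATAAA, which do not overlap each other as spelled, found no TAATCC in any of the 12 windows, where 6.25% of all windows hold it. TATAAA was present in the windows of Trpc4 and Trpm2 and in 12.4% of all windows.

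Trpv4 (ENSMUSG00000014158; chr5:114622152-114658421, minus strand of GRCm38) had levels that did not overlap between any of the 4 groups, which hold 2 or 3 libraries each. The share of all genes that separate groups in this way, here and for the members below, was not counted. It stood at 10.1, 30.7 and 30.5 CPM in mock libraries 1, 2 and 3, from 254, 590 and 2208 counts. The aversive libraries had 4.85 and 7.03 CPM, from 97 and 351 counts. The appetitive libraries had 0 and 2 counts, or 0 and 0.105 CPM, where 3 counts would be 0.235 and 0.157 CPM. The neutral libraries had 582, 147 and 437 CPM, from 36916, 12757 and 33990 counts. Each neutral library was thus above each of the others and each appetitive library was below. Appetitive relative to neutral was the comparison that chose Trpv4, so this part of the order is not independent of that choice. In group means the order was neutral (389 ± 221 CPM, SD, n = 3), mock (23.8 ± 11.8, n = 3), aversive (5.94 ± 1.54, n = 2) and appetitive (0.0524 ± 0.0741, n = 2).

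**Figure D1:**
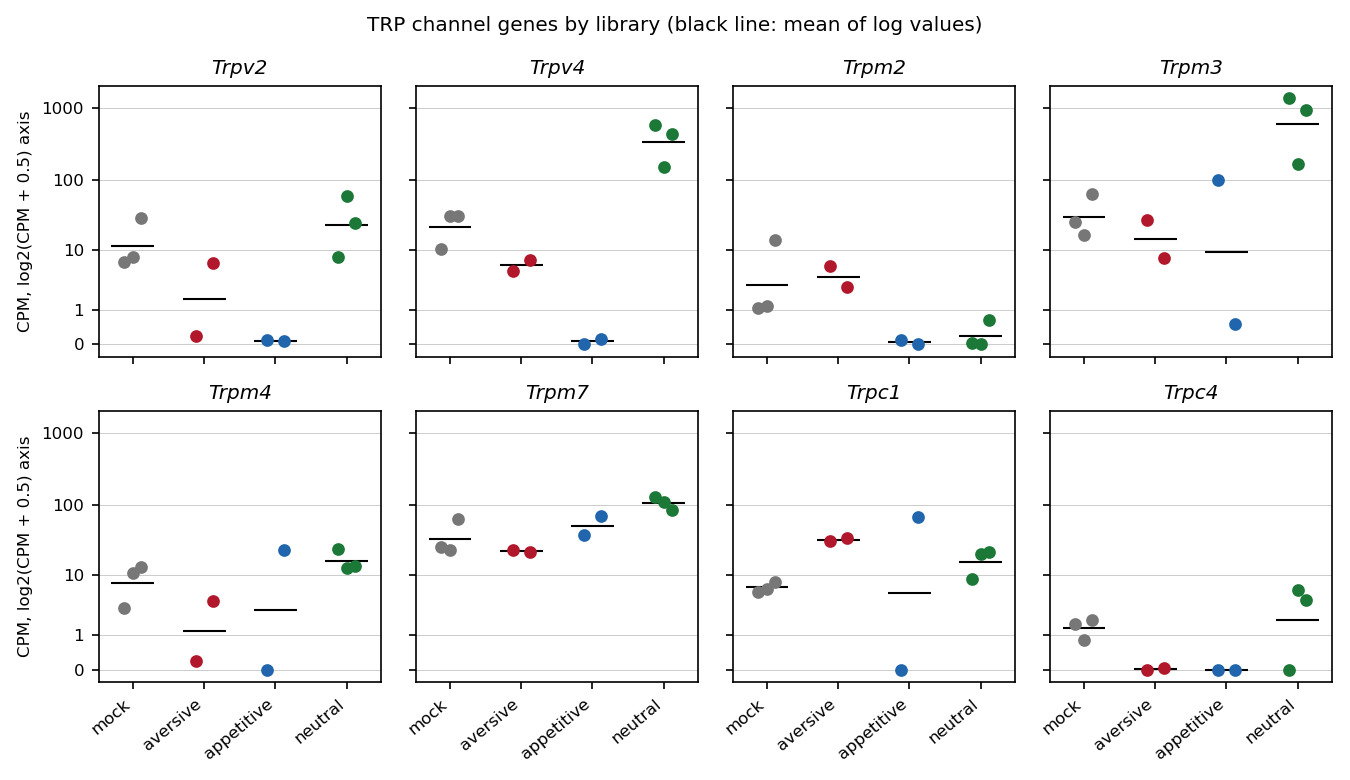
CPM (log2(CPM + 0.5) axis) of the 8 members that passed the filter on low counts, 1 point per library in each of the 4 groups, with a line at the mean of the log values. For Trpv4 the 3 neutral libraries lie between 147 and 582 CPM and the 2 appetitive libraries at 0 and 0.105 CPM, whereas for Trpm3, Trpm4 and Trpc1 the 2 appetitive libraries lie far apart.

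The remaining vanilloid members were lower or absent. Trpv2, a channel related to the capsaicin receptor and expressed in many immune cells, had 6.69, 7.71 and 29.1 CPM in mock, 0.150 and 6.43 CPM in aversive, 0.0782 and 0.0524 CPM in appetitive and 7.73, 58.4 and 24.7 CPM in neutral libraries. The appetitive values stand for 1 count each, and aversive library 1 for 3 counts, so that each aversive library was also below the lowest mock library. Trpv1, the capsaicin and heat receptor of sensory neurons, had 0 counts in all 10 libraries, which allows up to 0.0346 to 0.235 CPM depending on depth. Trpv6, an epithelial calcium channel, had 6 counts each in mock libraries 2 and 3 (0.312 and 0.0829 CPM) and 0 in the other 8. Neither Trpv1 nor Trpv6 passed the filter.

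Among the melastatin members, Trpm3 was the most abundant and the least even. Its product opens with heat and with the steroid pregnenolone sulfate and, like TRPV4, is known from the choroid plexus as well as from neurons. Trpm3 stood at 25.1, 16.6 and 62.9 CPM in mock and at 27.2 and 7.60 CPM in aversive libraries. The appetitive libraries had 97.9 and 0.471 CPM, from 1252 and 9 counts. The neutral libraries had 1367, 166 and 936 CPM. Each neutral library was above the other 7, but appetitive library 1 was above all mock and aversive libraries while appetitive library 2 was the lowest of the 10, so the low appetitive level of Trpv4 was not shared by Trpm3 in both libraries.

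Trpm3 (chr19:22139046-22995410, plus strand) also carries the gene of miR-204 in an intron. Reads assigned to that microRNA gene numbered 53, 58 and 30 in the neutral libraries and 0 in the other 7, including the appetitive library with 1252 Trpm3 counts. Trpm3 itself had 86642, 14378 and 72864 counts in neutral libraries 1, 2 and 3. The split between neutral and the other libraries follows both the labelled input, total RNA against polyA RNA, and the Trpm3 level. These cannot be told apart here. Within the neutral group the orders differed, as library 2 had the most reads on the microRNA gene and the fewest Trpm3 counts. Counts on the gene do not show whether a mature arm is present, nor which. The annotated 5p arm, shown because its gene is within the member with the highest CPM, lies at chr19:22750610-22750631 (plus), with its seed (bases 2 to 8) in capitals.
mmu-miR-204-5p: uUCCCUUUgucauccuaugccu
The annotation also places antisense transcripts over 1.13% and 1.44% of Trpm3 exon bases, and counting ignored strand, so reads there could not be assigned to 1 of the pair.

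Trpm7, which joins a magnesium- and calcium-permeable pore to a kinase and is expressed in nearly every cell type, was the most even member. Mock libraries had 25.0, 23.0 and 61.9 CPM, aversive 23.1 and 21.3, appetitive 37.2 and 68.6, and neutral 128, 107 and 84.3 CPM. It was the only member above 1 CPM in all 10 libraries, and its neutral libraries were above the rest. Trpm4, a calcium-activated channel for monovalent cations, spanned 3.15 to 13.1 CPM in mock, 0.150 and 4.07 CPM in aversive and 12.5 to 23.3 CPM in neutral libraries, and its appetitive libraries had 0 and 22.9 CPM. Trpm2, gated by ADP-ribose and known from microglia, had 1.11, 1.20 and 13.9 CPM in mock, 5.65 and 2.69 in aversive, 0.0782 and 0 in appetitive and 0.0158, 0 and 0.604 in neutral libraries. Trpm2 was therefore the member whose neutral libraries lay below all mock and aversive libraries. Summed levels of 6 microglial markers were likewise 35.7 to 253 CPM in neutral and 707 to 8367 CPM in the other libraries, and their part in the Trpm2 values was not tested.

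The canonical members did not move together. Trpc1, which forms channels with other TRPC subunits in neurons and elsewhere, had 5.61, 6.20 and 7.92 CPM in mock, 30.3 and 33.3 in aversive, 0 and 66.7 in appetitive and 8.55, 19.9 and 21.4 CPM in neutral libraries. Both aversive libraries were above all mock and neutral libraries, and the appetitive libraries held the lowest and the highest value of the 10. Trpc4, a subunit of receptor-operated channels of neurons and endothelium, had 1.67, 0.781 and 1.99 CPM in mock, 0 and 0.0200 in aversive, 0 and 0 in appetitive and 0, 5.84 and 4.16 CPM in neutral libraries. With 1 count over both aversive libraries and 0 over both appetitive libraries, mock was the 1 group with Trpc4 counts in every library.

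Levels of different genes were compared per kilobase of exon (CPM per kb). In neutral libraries Trpv4 led with 95.4 ± 54.3 CPM per kb (SD, n = 3), followed by Trpm3 at 33.7 ± 24.9, Trpm7 at 9.41 ± 1.92 and Trpv2 at 6.75 ± 5.74, and the ranges of neighbours in this order overlapped, although Trpv4 was first in each of the 3 libraries. In mock libraries Trpv4 was again first, at 5.84 ± 2.90 CPM per kb, with Trpm7 at 3.24 ± 1.94 and Trpv2 at 3.23 ± 2.82. Trpc1 was first in both aversive libraries, with 3.96 ± 0.259 CPM per kb (n = 2) against 1.46 ± 0.378 for Trpv4. The 2 appetitive libraries did not share a leading member, which was Trpm3 in library 1 and Trpc1 in library 2. Of all counts on the 10 members, Trpv4 made up 27.5%, 28.5% and 28.7% in the neutral libraries, 12.9%, 31.7% and 13.8% in mock, 5.31% and 8.53% in aversive, and 0% and 0.0660% in appetitive libraries. The Trpv4 share was thus close to constant over the neutral libraries although their Trpv4 levels spanned 147 to 582 CPM.

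**Figure D2:**
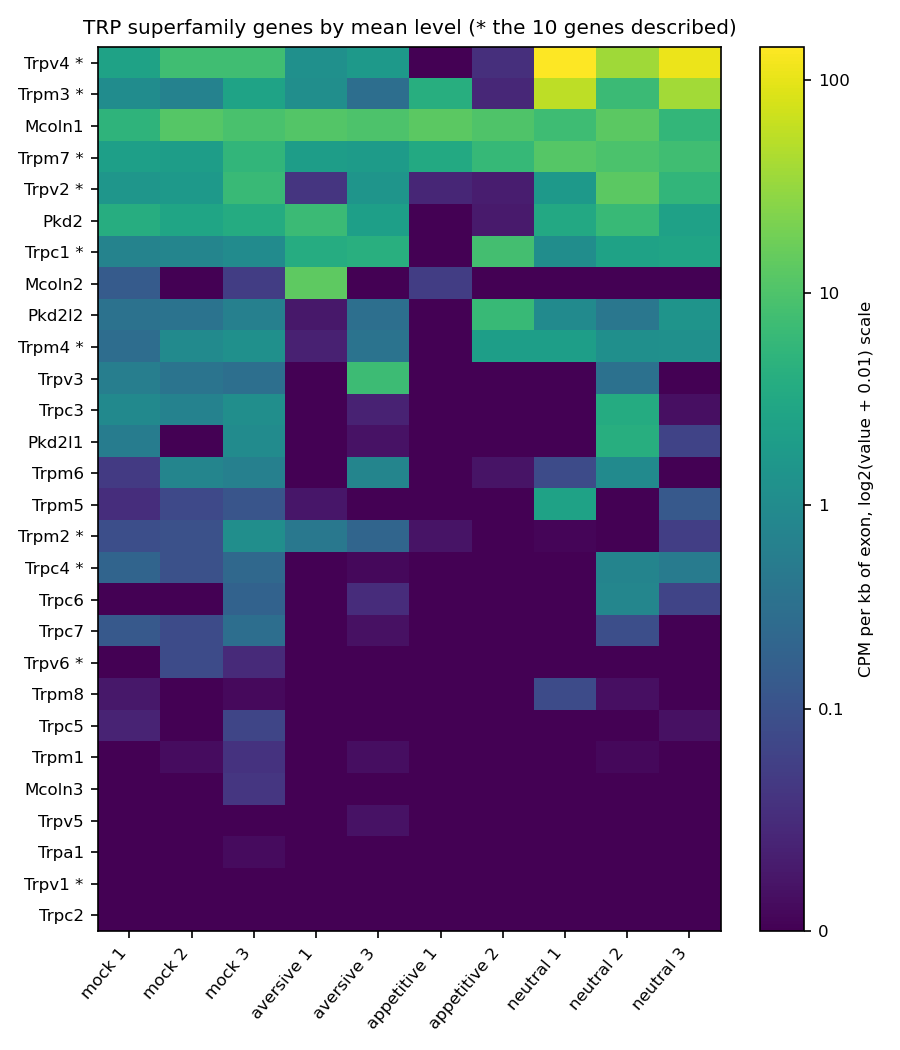
CPM per kb of exon (colour, log2(value + 0.01) scale) of 28 TRP superfamily genes in each of the 10 libraries, ordered by mean level, with an asterisk on the 10 genes described. Trpv4 is first with a mean of 30.7 CPM per kb over all libraries and Trpv1 is dark throughout, at 0 counts.

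Differences were tested with edgeR's quasi-likelihood test on all 10 libraries, with p-values adjusted over 19754 genes by the Benjamini-Hochberg method, and log2 fold changes carry standard errors (SE). The aversive and mock groups share no library with the comparison that chose Trpv4, so their levels were not the ones compared in that choice. The fit still takes its filter and estimate of spread from all 10 libraries, so its p-values are not fully independent of that choice. Trpv4 was 2.00 lower on the log2 scale in aversive than in mock libraries (log2 fold change -2.00, SE 0.93, edgeR adjusted p = 0.495). No member passed at an adjusted p under 0.05, where 0% of all genes did, and none had an unadjusted p under 0.05, where 9.96% of all genes did. DESeq2 on the same libraries also called 0 of 7 members it tested, against 8.09% of all genes. DESeq2 on the 5 aversive and mock libraries alone called 2 members, where 14.0% of all genes were called. They are named after their values were seen: Trpc1 was higher (log2 fold change 2.46, DESeq2 adjusted p = 0.0216) and Trpc4 lower (-6.47, DESeq2 adjusted p = 0.00324) in aversive libraries. In the edgeR fit Trpc1 was at 2.27 (SE 1.74, edgeR adjusted p = 0.654), so this call depended on the tool and the libraries fitted. Of the 8 members fitted, 7 were lower and 1 was higher in aversive libraries, with a median log2 fold change of -1.50 against -0.13 over all genes.

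The other comparisons share the appetitive or the neutral libraries with the one that chose Trpv4, so their values for Trpv4 are not independent of that choice. In appetitive relative to mock libraries the Trpv4 log2 fold change was -8.59 (SE 1.37, edgeR adjusted p = 0.0317). From the pooled counts, 2 against 3052, Trpv4 was 417-fold higher in mock, with an exact 95% interval of 115 to 3444 that covers counting error only. Trpv4 was the 1 member called here, where 1.98% of all genes were. Trpv2 (log2 fold change -7.76, SE 2.25, edgeR adjusted p = 0.0908) and Trpc4 (-9.05, SE 3.92, edgeR adjusted p = 0.200) were past an unadjusted p of 0.05, as 23.8% of all genes were, and DESeq2 called these 2 with Trpv4, 3 of 7, against 26.1% of all genes. Without aversive library 1 or 3, which leaves 1 library in that group, the Trpv2 log2 fold change was -7.93 or -7.78. The Trpc4 value rests on 0 appetitive counts and depends on the prior count of the fit. Against the floor of 3 counts in the shallower library, Trpc4 was at least 6.31-fold higher in mock. The median over the 8 members was -3.39, and over all genes -1.45, with 4 members higher and 4 lower.

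In appetitive relative to aversive libraries the Trpv4 log2 fold change was -6.59 (SE 1.30, edgeR adjusted p = 0.0361), or 102-fold higher in aversive from 2 against 448 counts (exact 95% interval 28.1 to 846). Trpv4 was again the 1 member called, where 1.8% of all genes were. Trpv2 had a log2 fold change of -5.62 (SE 2.10, edgeR adjusted p = 0.184), or -1.20 without aversive library 3, so 2 of 8 members were past an unadjusted p of 0.05, as 20% of all genes were. DESeq2 called Trpv2 and Trpv4, 2 of 7, against 23.3% of all genes. The median log2 fold change was -1.17 over the 8 members and -0.48 over all genes, with 4 members higher and 4 lower.

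Both calls of Trpv4 depended on the fit and on the libraries in it, and the cause was not tested. The call against aversive libraries was lost in 11 of 17 alternatives and the call against mock libraries in 8 of 18, although the fold change kept its sign in each. Leaving out any 1 mock or neutral library ended both calls (adjusted p of 0.0570 to 0.0937 against mock and 0.0559 to 0.0923 against aversive libraries), and leaving out appetitive library 1 ended the latter (adjusted p = 0.0518). The loss was not particular to Trpv4. When a mock or neutral library was left out, 0 of 18151 to 19822 genes were called against mock libraries. Against aversive libraries 0 were called as well, except without neutral library 2, where 84 of 18854 genes were. In a fit of the 7 libraries made with 1 kit, the log2 fold changes were -8.54 against mock and -6.69 against aversive libraries, with edgeR adjusted p of 0.125 and 0.187. In that fit 0 of 17595 genes were called in either comparison. Without appetitive library 2 the remaining library had 0 counts of Trpv4, and the fitted values became -13.21 and -11.16.

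**Figure D3:**
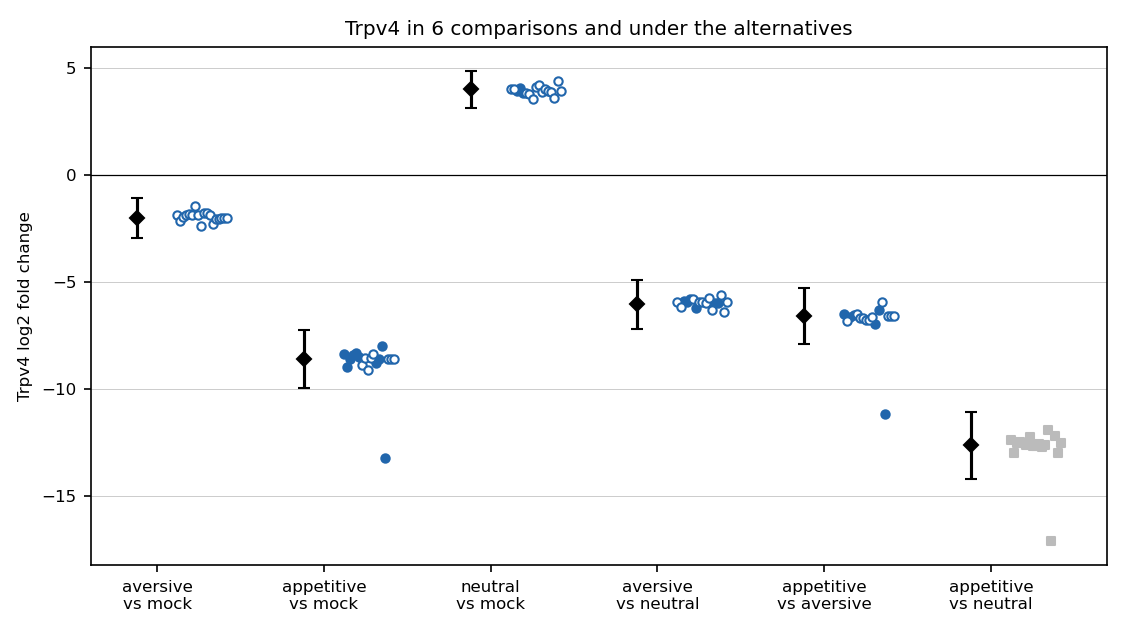
Log2 fold change of Trpv4 in the 6 comparisons, with the value reported and its SE as a diamond and the alternatives as small points, filled where the adjusted p was under 0.05 and open where it was not. Points for appetitive vs neutral are grey squares, since that comparison chose the gene, and every point of a comparison lies on the same side of 0.

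The comparisons with neutral libraries carry the change of kit. Trpv4 was higher in neutral than in mock libraries by a log2 fold change of 4.03 (SE 0.87, edgeR adjusted p = 0.160), and lower in aversive than in neutral libraries (-6.03, SE 1.15, edgeR adjusted p = 0.0998). Neither passed the threshold, although the libraries did not overlap. Trpm3 had values of 4.56 (SE 1.49, edgeR adjusted p = 0.203) and -5.56 (SE 1.87, edgeR adjusted p = 0.179) in the same order. Trpm7 was fitted lower in aversive than in neutral libraries (-2.26, SE 0.87, edgeR adjusted p = 0.210), and so was Trpc4 (-7.81, SE 3.32, edgeR adjusted p = 0.246), for which neutral library 1 had 0 counts. With either appetitive library left out, which is in neither group compared, the Trpv4 log2 fold change in aversive relative to neutral libraries was -5.97.

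No member was called between neutral and mock libraries, where 0.0861% of all genes were, nor between aversive and neutral libraries, where 0.0405% were. At an unadjusted p under 0.05 there were 2 members higher in neutral than in mock, against 13.5% of all genes in either direction, and 4 lower in aversive than in neutral, against 19.1%. DESeq2 called Trpm3 and Trpv4 in the former, 2 of 7 against 7.76% of all genes, and Trpc4, Trpm3, Trpm7 and Trpv4 in the latter, 4 of 7 against 15.8%. Member medians were 1.25 between neutral and mock libraries and -3.07 between aversive and neutral libraries, with 0.08 and -0.15 over all genes.

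In appetitive relative to neutral libraries, the comparison that chose the gene, Trpv4 had a log2 fold change of -12.62 (SE 1.56), from 2 against 83663 counts, or -17.13 without appetitive library 2. Trpv2 was at -8.82 (SE 2.35), Trpc4 at -10.22 (SE 4.03, 0 appetitive counts) and Trpm3 at -4.07 (SE 1.73), or -10.84 without appetitive library 1. Since these libraries chose the gene, the numbers past each threshold are no test of the members: 1 of 8 members, Trpv4, at an adjusted p of 0.05 beside 6.17% of all genes, 4 at an unadjusted p of 0.05 beside 29.3%, and 3 of 7 by DESeq2 beside 28.3%. The median over members was -3.25 and over all genes -0.91.

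The low appetitive counts of Trpv4 were not rare in these libraries. At most 3 counts in both appetitive libraries with more than 3 counts in each of the other 8 was seen for 993 of the 19754 tested genes, or 5.03%. The corresponding numbers for the aversive, neutral and mock groups were 22, 20 and 0 genes.

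Choroid plexus markers were measured beside Trpv4 and Trpm3, because both genes are known from that epithelium. The 8 markers summed to 1139 to 3587 CPM in mock, 7127 and 14105 CPM in aversive, 849 and 2995 CPM in appetitive and 22197 to 135066 CPM in neutral libraries, and most of this was Ttr, the transthyretin transcript. In neutral libraries 1, 2 and 3 Ttr stood at 128856, 20730 and 93601 CPM, in the same order as Trpv4 and Trpm3. Between mock and aversive libraries the order differed. Ttr was at 1066, 1072 and 3156 CPM in mock and at 13200 and 6793 CPM in aversive libraries, where Trpv4 was below each mock library.

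Relative to Ttr, a ratio added after the data were seen, Trpv4 had 4.52, 7.11 and 4.67 CPM per 1000 CPM of Ttr in neutral, 9.48, 28.7 and 9.67 in mock, 0.368 and 1.04 in aversive and 0 and 0.0362 in appetitive libraries. Neutral libraries were thus below mock libraries by this ratio, the reverse of their order in CPM, and the appetitive libraries were the lowest on both scales. Without Ttr, the other 7 markers summed to 1.41 CPM in appetitive library 1 and 98.5 CPM in appetitive library 2, where mock libraries had 66.2 to 432 CPM. In appetitive library 2 the markers were uneven. Sostdc1, Kcnj13, Kl and Folr1 had 52.4, 27.9, 12.5 and 5.55 CPM there, whereas Clic6 had 0 counts and Aqp1 had 1. Its Trpv4 level was 0.105 CPM. Otx2, which encodes a transcription factor of choroid plexus epithelium, was at 0 counts in appetitive library 1 and aversive library 1 and at 1 count in appetitive library 2. The 5 ependymal markers, from the cells that line the ventricles, summed to 0.0782 and 118 CPM in appetitive, 68.7 and 315 CPM in aversive, 24.6 to 143 CPM in mock and 281 to 338 CPM in neutral libraries. Astrocyte markers were lower in neutral libraries, at 150 to 332 CPM, than in the others, at 3071 to 14282 CPM. The part of these cell types in the Trpv4 and Trpm3 values was not tested.

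**Figure D4:**
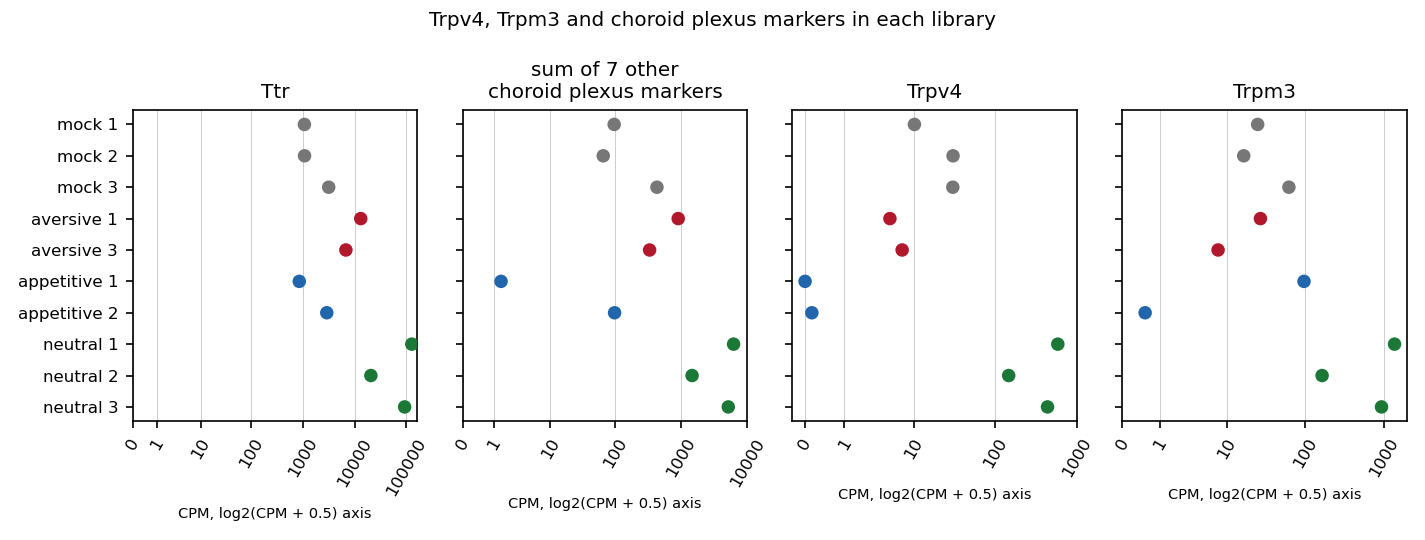
CPM (log2(CPM + 0.5) axes) in each of the 10 libraries of Ttr, of the sum of 7 other choroid plexus markers, of Trpv4 and of Trpm3. Neutral libraries are the highest in all 4 panels, whereas aversive libraries exceed mock libraries for Ttr (6793 and 13200 CPM against at most 3156) and are below them for Trpv4.

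The genes most like Trpv4 were ranked among 11479 tested genes with a mean of at least 5 CPM by the mean absolute difference of log2(CPM + 0.5) from Trpv4 over the 10 libraries, each gene centred on its own mean. The closest was Pcolce, a procollagen processing enhancer, with a mean difference of 0.35 (log2), and levels of 398, 126 and 427 CPM in neutral and 0.0782 and 0.0524 CPM in appetitive libraries. Eps8l2 followed at 0.66, C1qtnf12 at 0.67, and Cfap45, a cilia and flagella associated gene, and Steap2, a metalloreductase gene, at 0.78 each. The choroid plexus markers were spread, with Otx2 at rank 61, Aqp1 at 71, Folr1 at 281 and Clic6 at 285. Kcnj13 was at 822, Sostdc1 at 1119, Kl at 1544 and Ttr at 1885. Trpm3 ranked 305 and Trpv2 800. This likeness is a description over 10 libraries that share groups, kit and depth. The 5 genes were picked for it, so their shared pattern is no test. The study also lists Pcolce among its leading lower genes in appetitive relative to neutral cells, the comparison that chose Trpv4.

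**Figure D5:**
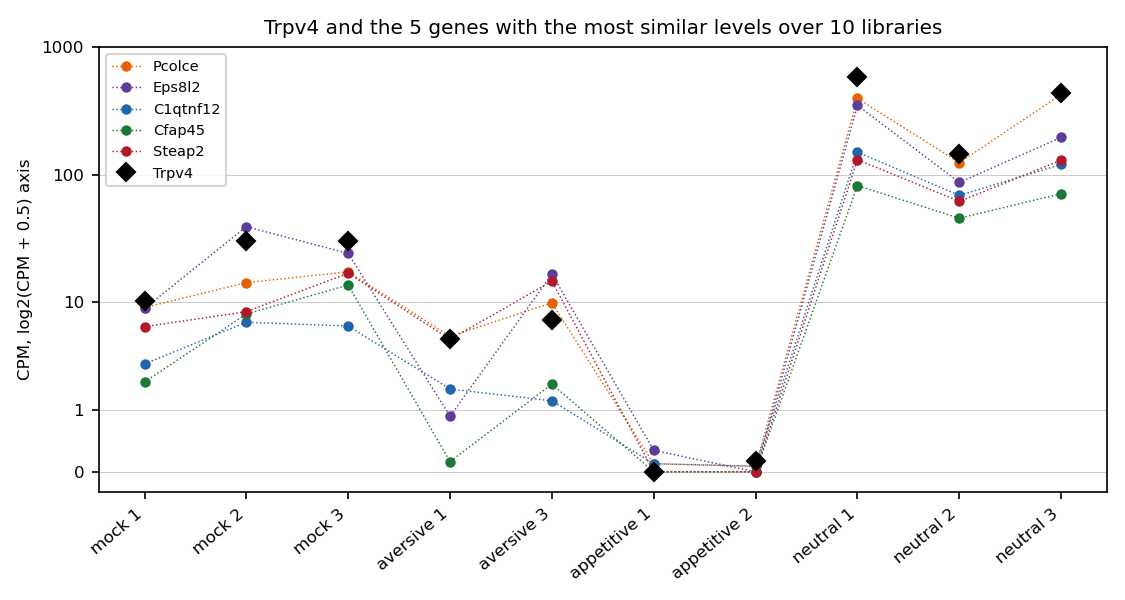
CPM (log2(CPM + 0.5) axis) of Trpv4 (diamonds) and of the 5 genes with the most similar levels over the 10 libraries, each as points joined by a dotted line for legibility. All 6 genes are highest in the 3 neutral libraries and at or below 0.235 CPM in both appetitive libraries, a likeness for which the 5 were picked.

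The rest of the TRP superfamily was examined as 18 genes, of which 11 passed the filter on low counts. Mcoln1, the lysosomal mucolipin channel, was the highest of them at a mean of 9.56 CPM per kb and was even, at 37.6 to 98.4 CPM over all 10 libraries. Pkd2, the polycystin-2 channel of primary cilia and endoplasmic reticulum, was the 1 gene of the list called in appetitive relative to aversive (log2 fold change -9.54, SE 1.72, edgeR adjusted p = 0.0287) and to mock libraries (-9.16, SE 1.68, edgeR adjusted p = 0.0322), 1 of the 11 genes fitted where 1.8% and 1.98% of all genes were called. Like those of Trpv4, these calls depended on the libraries fitted. In the 7 libraries of 1 kit 0 of 17595 genes were called in either comparison. Against mock libraries 0 genes were called once any 1 mock or neutral library was left out. Pkd2 had 0 and 2 counts in the appetitive libraries and 22.2 to 67.8 CPM in the other 8. Unlike Trpv4, it was not highest in the neutral libraries, at 39.9 ± 20.7 CPM (SD, n = 3) against 45.0 ± 32.3 in aversive (n = 2) and 34.4 ± 5.84 in mock libraries (n = 3). No gene of the list was called in the 3 comparisons without appetitive libraries, where 1, 0 and 0 genes were past an unadjusted p of 0.05 between aversive and neutral, aversive and mock, and neutral and mock libraries, beside 19.1%, 9.96% and 13.5% of all genes. DESeq2 called 2, 0 and 1, beside 15.8%, 8.09% and 7.76% of all genes. Median log2 fold changes of the list were -4.07 in appetitive relative to aversive and -7.35 relative to mock libraries.

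Trpc1 and Trpc4 lie downstream of Gq-coupled receptors, and 15 genes of that route and of store-operated calcium entry were all tested. Gna11, a Gq-family alpha subunit, was the highest at a mean of 27.0 CPM per kb. Lower in appetitive than in both mock and aversive libraries were Plcb3, a phospholipase C, and Stim2, a calcium sensor of the endoplasmic reticulum, 2 of 15 genes in each comparison, where 1.98% and 1.8% of all genes were called. Plcb3 had 2 and 1 counts in the appetitive libraries, with log2 fold changes of -8.90 relative to mock (SE 1.45, edgeR adjusted p = 0.0317) and -8.66 relative to aversive (SE 1.45, edgeR adjusted p = 0.0253). Stim2, with 6 and 11 appetitive counts, had values of -5.42 (SE 1.13, edgeR adjusted p = 0.0408) and -5.58 (SE 1.17, edgeR adjusted p = 0.0405). These calls too were lost in the 7 libraries of 1 kit, where 0 of 17595 genes were called in either comparison. Those against mock libraries were also lost once any 1 mock or neutral library was left out. At most 3 counts in the appetitive libraries alone, as for Plcb3, was seen for 5.03% of tested genes. No gene of the list was called in the 3 comparisons without appetitive libraries, where 2, 0 and 2 genes were past an unadjusted p of 0.05 (19.1%, 9.96% and 13.5% of all genes) and DESeq2 called 1, 0 and 2 (15.8%, 8.09% and 7.76% of all genes). List medians were -2.01 and -0.95 in appetitive relative to mock and aversive libraries, near the -1.45 and -0.48 of all genes.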

How the data were processed

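Per the methods, the authors trimmed reads to their first 40 bp, aligned these with STAR on mm10 with Ensembl annotation, and counted them per gene with featureCounts without regard to strand. The deposited values are raw counts for 53379 genes in each of 10 libraries, of which 53274 identifiers were matched to GENCODE M21 (GRCm38). Reads of near-identical paralogs could be lost or split by this counting, as for Trpv6 and its neighbour Trpv5.

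The labels gave each library its group and number. The members and lists were chosen with earlier results of these data known. Trpv4 and members past an unadjusted p of 0.05 are given fold changes, listed genes are named where called outside the comparison that chose Trpv4 or highest per kb, and the 5 genes most like Trpv4 are named.

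In R 4.3.3, edgeR 4.0.16 was used with TMM scaling and filterByExpr, which kept 19754 genes. A quasi-likelihood model of 4 groups was fitted to 10 libraries (biological coefficient of variation 122%), with two-sided p-values adjusted by the Benjamini-Hochberg method. SE was the log2 fold change over the square root of F. CPM are counts scaled to 1000000 of the TMM-scaled total, 3 counts were taken as the floor, and floors and intervals cover counting error only. DESeq2 1.42.0 on 10 libraries was the main alternative. The steps were tested on simulated data. Figures were drawn with matplotlib 3.10.9 in Python 3.11.15. None of the 8 pairs of libraries within a group agreed within sampling noise. Methylation data were not used here.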

Additional observations from a re-analysis of the deposited data

How the results depend on the processing

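Fold changes kept their sign in all 276 refits of the 16 reported fold changes. For the 12 fold changes outside appetitive vs neutral, 160 of 208 refits stayed on the same side of the threshold, 19 lost a call and 29 gained one. The 4 fold changes of appetitive vs neutral were compared by size alone, and 63 of 68 refits stayed within the spread. In the order aversive and appetitive vs neutral, appetitive vs aversive, and aversive, appetitive and neutral vs mock, members called numbered 0, 1, 1, 0, 1 and 0 as reported. Over all 19754 genes the calls numbered 8, 1218, 356, 0, 391 and 17 in the same order. Members called numbered 4, 3, 2, 0, 3 and 2 by DESeq2 on 10 libraries, beside 3354, 6016, 3956, 1467, 4736 and 1598 of 16982 to 21241 genes. By DESeq2 on the compared groups they numbered 3, 2, 0, 2, 4 and 2, beside 3141, 4635, 1593, 2878, 5676 and 3857 of 14043 to 21684 genes. Without a filter they numbered 2, 3, 1, 0, 1 and 2, beside 863, 2535, 1270, 10, 1124 and 520 of 35266 genes. With edgeR on the compared groups members called were 0, 0, 0, 0, 3 and 0. Over all genes the calls there were 0 except in appetitive vs mock, with 3585 of 16471. With library size alone members called were 0, 1, 0, 0, 1 and 0, beside 7, 1202, 282, 0, 390 and 8 of 19754 genes. A minimum of 10 counts in every library gave 0 in each, since it removes Trpv4, beside 41, 160, 9, 0, 8 and 51 of 4661 genes. In the 7 libraries of 1 kit, 0 members were called in the 3 comparisons possible, and 0 of all 17595 genes. The other TRP list had 3 calls over the 6 comparisons as reported, and 5, 0, 9 and 13 without a filter, with the minimum of 10, by DESeq2 on 10 libraries and by DESeq2 on the compared groups. The signalling list had 6 as reported, 0 with the minimum of 10, 15 by either DESeq2 fit and 3 with edgeR on the compared groups. Calls over all genes shifted with the same settings, as given above for each comparison. The cause of these shifts was not tested.

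Leaving out each mock or neutral library in turn gave 1 member called in appetitive vs neutral, beside 67 to 777 of all genes. It gave 0 members in aversive vs neutral, appetitive vs aversive and appetitive vs mock, beside 0 to 3, 0 to 84 and 0 of all genes. The other TRP list had 0 to 1 calls in these refits and the signalling list 0 to 2. Leaving out an aversive or appetitive library left 1 in that group, so those counts are not given.

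Whether replicate numbers pair the libraries could not be settled from these values. Correlations of same-numbered deviations ran from -0.037 to 0.164, and for neutral and mock libraries, the 1 comparison with 3 shared numbers, they were 0.135, 0.10 and 0.055, although 3 of 3 neutral libraries correlated best with their own number. With the replicate number as a block on the compared groups, 2, 0, 0, 0 and 0 members were called in aversive and appetitive vs neutral and in aversive, appetitive and neutral vs mock. Over all genes, 21 of 17190, 0 of 16100, 0 of 17432, 2 of 16471 and 0 of 17391 were called in the same order. The groups of appetitive vs aversive share 1 number, so no block was possible there.

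Depth limited Trpv1, Trpv6 and the appetitive values of Trpv4, Trpv2 and Trpc4, which rest on 0 to 2 counts.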
